A study of Mus musculus with 15 samples.

Results

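The comparison described here is that of mouse neural progenitor cells that received the Orf1 hairpin together with LINE-1 (shLINE_Orf1+LINE-1) against cells that received the control hairpin (shControl). It holds 6 of the series' 15 libraries, 3 in each group, chosen by their sample titles, and covers all 15141 genes with enough counts to be tested. It addresses which genes still differ from the control hairpin when LINE-1 is supplied back.

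All cells were wild type mouse neural progenitor cells, dividing precursors of neurons and glia, kept with FGF2, EGF and heparin. Every group received plasmids that carry a short hairpin RNA (shRNA) and EGFP, and on day 3 the GFP-positive cells were sorted. The shLINE_Orf1+LINE-1 cells got the hairpin shLINE_Orf1, which the series' design text places against young LINE-1, and a full-length LINE-1 at the same time. The shControl cells got the control hairpin, and the shLINE_Orf1 cells, which are set beside both for some of the genes named, got the hairpin alone. The groups shLINE_Orf2 and shLINE_MdV_I, with 3 libraries each, entered the fit and are shown for a few genes. The labels name neither the promoters that drive the hairpin and the LINE-1 nor whether the supplied LINE-1 holds the sequence that the hairpin matches. The 15 libraries of the series include no group with LINE-1 and the control hairpin. What the supplied LINE-1 does without the Orf1 hairpin therefore cannot be told apart from what both do together. The labels do not state whether a group's libraries are separate cultures; p-values here therefore reflect the spread among these samples, and that spread may be technical.

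LINE-1 elements are retrotransposons: a full-length copy is transcribed, its first open reading frame encodes an RNA-binding protein, and its second encodes the endonuclease and reverse transcriptase that copy the RNA back into the genome. In neural progenitors most copies are kept silent by DNA methylation and heterochromatin, and young copies are the ones still able to move. An shRNA is processed to a small RNA that directs the cleavage of transcripts of matching sequence, so an element supplied on a plasmid can be used to ask which changes depend on the element. The counts used are those of annotated gene transcripts. LINE-1 RNA, the plasmids and EGFP were left unmeasured, so neither the knockdown nor the supply of LINE-1 was checked in any library.

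The 6 libraries held between 45096726 and 51070479 gene counts. The shLINE_Orf1+LINE-1 libraries were close to each other, with a chi-square over degrees of freedom of 7.32 to 10.6 for pairs of replicates, whereas it was 44.9 to 143 for pairs of shControl libraries. On the first principal component of log2 CPM (CPM being counts relative to the scaled library size), shControl replicate 2 lay at 24.2 and shLINE_Orf1 replicate 1 at 75.9, while the remaining 13 ran from -18.8 to 4.72. These 2 libraries stand apart, and counts without them are given beside the results. The deviation of a library from the mean of all libraries correlated with the exonic length of genes at 0.366, -0.389 and 0.211 in shControl replicates 1 to 3 (Spearman's rho across genes, which are not independent) and at 0.180, 0.055 and 0.054 in the shLINE_Orf1+LINE-1 libraries. The log2 fold change between these 2 groups correlated with length at 0.050, and that of shLINE_Orf1 against shControl at -0.338.

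Markers of neural progenitors were present, with a mixed picture for other cell types. The progenitor factor Sox2 stood at 189, 222 and 198 CPM in shControl replicates 1 to 3, and in shLINE_Orf1+LINE-1 at 170, 176 and 178 CPM. The glial progenitor factor Olig2 stood at 668 to 857 CPM in shControl and at 820 to 863 CPM with LINE-1, and the intermediate filament gene Nes at 325 to 403 and at 297 to 336 CPM. The early neuronal gene Dcx was low in both groups, at 5.01 to 7.77 and at 2.97 to 4.12 CPM, as was the astrocyte gene Gfap, at 2.77 to 4.66 and at 4.32 to 5.96 CPM. Aldh1l1, an astrocyte marker, stood at 224 to 240 CPM in shControl and 268 to 294 CPM with LINE-1, and the endothelial Pecam1 at 20.9 to 45.4 and 28.9 to 33.6 CPM. List genes were also summed, tested or not, relative to the unscaled library size. For astrocytes the sum was 6200 to 7130 CPM in shControl and 6820 to 7070 CPM with LINE-1. It was 3370 to 3980 and 3490 to 3700 CPM for the oligodendrocyte lineage, and 2880 to 3060 and 2770 to 2830 CPM for neuronal differentiation. Of 29 marker genes, 23 were tested and 0 were called by edgeR's quasi-likelihood test. Aif1 of microglia had 0 counts in all 15 libraries, and Cx3cr1, Cdh5, Cldn5, Pdgfrb and Dcn, which mark microglia, endothelium, pericytes and fibroblasts, had at most 12 counts in any of the 6. Since these are bulk samples, fewer cells of a type and less RNA per cell cannot be told apart.

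With LINE-1 supplied, Cryab, a small heat shock protein and chaperone, and Rab3b, a small GTPase of secretory vesicles, were still higher than with the control hairpin. So were the lysosomal genes Lamp1 and Atp6v1b2 and the myosin light chain Myl9. The actin-severing Gsn, the actin-binding Cald1, the secreted Mfge8 and the histone genes Hist1h1c and Hist1h2bc were lower, and so were Ankrd37, a gene known to respond to hypoxia, and Pdlim3. In all, 11 genes were higher and 10 lower at a Benjamini-Hochberg adjusted p under 0.05, which is 0.0727% and 0.0660% of the genes tested (0.139% in both directions), and 1327 genes (8.76%) had an unadjusted p under 0.05. In each of the 21 genes the 3 libraries of one group lay beyond the 3 of the other. Over all genes tested, 9.53% were higher and 7.27% lower without overlap between the groups.

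**Figure D1:**
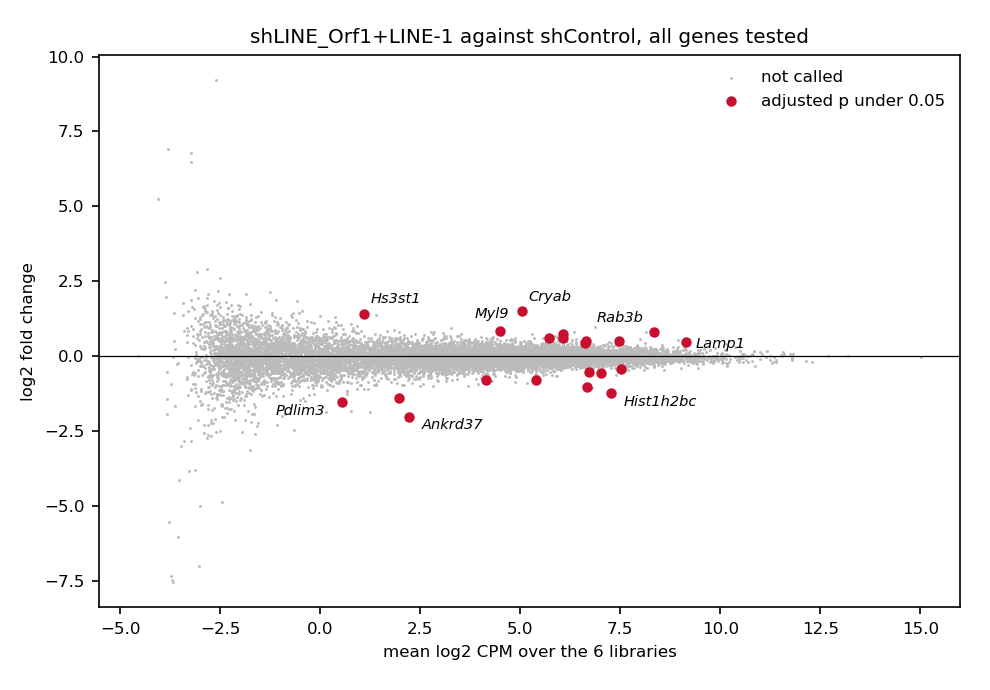
Log2 fold change of shLINE_Orf1+LINE-1 against shControl (vertical axis) by mean log2 CPM over the 6 libraries (horizontal axis), 1 point per gene for 15141 genes. The 21 red points are the genes with an adjusted p under 0.05, of which Cryab (1.51) and Ankrd37 (-2.02) are among those labelled; the widest spread of grey points is among genes with few counts.

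The number of genes called depended on single libraries. It was 22, 14 and 3 without shControl replicates 1, 2 and 3, and 2 without any one of the shLINE_Orf1+LINE-1 libraries; it was 4 with only the 2 groups in the fit. Without the 2 libraries that stand apart it was 202 higher and 151 lower (1.31% and 0.981% of genes), and all 21 genes were among them. Leaving out only shLINE_Orf1 replicate 1, which is in neither group compared but shares the estimate of the spread, gave 106 higher and 63 lower (0.686% and 0.408%); the total was 42 without shLINE_Orf1 replicate 2 and 15 without replicate 3. Of the 21 genes, 21, 21 and 15 were called in these 3 fits. In the other 16 alternatives Cryab and Rab3b passed each time, at adjusted p of at most 0.0010 and 0.0362, and the other 19 genes passed in 6 (Cald1) to 11 (Desi1) of them, with the same sign in all 16 of those.

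Promoter sequence is shown for 3 of the genes called, as one example each of a lysosomal gene that rose, the gene with the lowest fold change and a histone gene that fell. The sequences are from RefSeq (GRCm38.p6) and run 5′ to 3′ on the gene's strand, up to 250 bases before the RefSeq start. Of the 21 genes, 16 had an entry. The letters searched for, on both strands, were CACGTG (the palindromic E-box), ACGTG (the core of the hypoxia response element, which every CACGTG contains), CCAAT and TATAAA; a match is in capitals.

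Lamp1, chr8:13158911-13159160, plus strand: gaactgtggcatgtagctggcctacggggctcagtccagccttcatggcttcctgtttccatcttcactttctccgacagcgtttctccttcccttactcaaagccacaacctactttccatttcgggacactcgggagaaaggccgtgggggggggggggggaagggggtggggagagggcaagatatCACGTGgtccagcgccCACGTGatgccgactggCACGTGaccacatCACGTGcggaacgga
Ankrd37, chr8:45999868-46000100, minus strand: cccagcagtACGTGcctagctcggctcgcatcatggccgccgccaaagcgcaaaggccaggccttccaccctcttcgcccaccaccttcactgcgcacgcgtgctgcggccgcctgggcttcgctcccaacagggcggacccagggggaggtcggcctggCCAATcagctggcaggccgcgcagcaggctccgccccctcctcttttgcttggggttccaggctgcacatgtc
Hist1h1c (H1f2 in RefSeq), chr13:23738557-23738806, plus strand: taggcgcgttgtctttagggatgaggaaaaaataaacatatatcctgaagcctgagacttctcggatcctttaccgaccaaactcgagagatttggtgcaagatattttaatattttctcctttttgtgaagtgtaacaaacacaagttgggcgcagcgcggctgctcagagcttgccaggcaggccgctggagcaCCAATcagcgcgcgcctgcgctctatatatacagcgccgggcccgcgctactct

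The Lamp1 window holds CACGTG 4 times, beginning 61, 45, 28 and 15 bases before the start. Of 32851 RefSeq promoter windows of this length, 6.02% hold CACGTG at least once. The Ankrd37 window holds ACGTG at 241 bases before the start and CCAAT at 90; its last 17 bases lie in an annotated exon and are not printed, and they hold ACGTG once more, at 6. Of all windows, 16.6% hold ACGTG, 33.8% CCAAT and 12.4% TATAAA. Among the 16 windows of called genes, only that of Lamp1 held CACGTG, and only those of Lamp1, Ankrd37 and Desi1 held ACGTG. The windows of Myl9, Prss23, Pdlim3, Gsn, Cdc42ep3, Serpina3n, Hs3st1, Mfge8 and Snrpa1 held none of the letters searched for. The Hist1h1c window holds CCAAT at 54. These matches describe letters in a window and are not evidence of a bound site.

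Cryab (chromosome 9, 50751325 to 50756636, plus strand, GRCm38) encodes alpha B-crystallin, a small heat shock protein that keeps damaged proteins and filaments from aggregating. It stood at 18.3, 20.5 and 20.3 CPM in shControl replicates 1 to 3 and at 54.4, 57.6 and 55.8 CPM in shLINE_Orf1+LINE-1. All 3 LINE-1 libraries were more than 2 times as high as any control library, a log2 fold change of 1.51 ± 0.11 (SE), with an adjusted p of 1.33e-05 by edgeR's quasi-likelihood test. With the hairpin alone Cryab stood at 69.9, 58.3 and 53.8 CPM, a range that holds the 3 values with LINE-1. The difference between the 2 groups that carry the Orf1 hairpin was -0.12 ± 0.11 on the log2 scale (adjusted p = 0.585). Of its transcripts, the coding Cryab-205 and Cryab-201 made up 45.9% ± 5.0 and 33.2% ± 4.3 of the gene's counts in shControl (SD, n = 3) and 50.3% ± 4.9 and 31.6% ± 1.5 with LINE-1. Both, and the intron-retaining Cryab-204, were higher without overlap. Cryab was 1 of 24 heat shock genes tested, and the only one called: 9 had a positive and 15 a negative log2 fold change, with a median of -0.02, which is also the median of all genes tested.

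Rab3b (chromosome 4, 108879063 to 108943324, plus strand) belongs to the Rab3 GTPases, which sit on secretory and synaptic vesicles and take part in regulated release. Its levels were 235, 261 and 245 CPM in shControl and 417, 431 and 452 CPM with LINE-1, and the 2 groups were far apart (log2 fold change 0.81 ± 0.09, adjusted p = 0.00129). With the hairpin alone they were 437, 434 and 403 CPM, overlapping those with LINE-1 (difference 0.03 ± 0.09, adjusted p = 0.88). The longer list of Rab3 and vesicle genes had 35 members tested, of which Rab3b alone was called; 20 were positive and 15 negative, and the median was 0.08. The coding transcript Rab3b-201 held 73.1% ± 0.74 of the counts in shControl and 73.4% ± 0.92 with LINE-1.

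Lamp1 and Atp6v1b2 were the genes called from the list of the lysosome and its proton pump. Lamp1 (chromosome 8, 13159161 to 13175338), a main glycoprotein of the lysosomal membrane, stood at 482, 486 and 458 CPM in shControl and at 667, 646 and 676 CPM with LINE-1. Atp6v1b2, a subunit of the vacuolar ATPase that acidifies lysosomes, stood at 139, 149 and 152 CPM and at 212, 210 and 211 CPM. Both rose without overlap, by 0.48 ± 0.08 and 0.52 ± 0.09 on the log2 scale (adjusted p = 0.0214 each). The hairpin alone gave Lamp1 levels of 671, 695 and 632 CPM and Atp6v1b2 levels of 245, 202 and 216 CPM. Of the 42 list members tested, 2 were called higher and 0 lower, against 0.0727% and 0.0660% of all genes. The list as a whole was not shifted: 19 members were positive and 23 negative, with a median of -0.02. Pip4p2, an endosomal and lysosomal phosphoinositide phosphatase that is in no list, rose from 96.0, 82.3 and 74.8 to 123, 120 and 118 CPM (0.52 ± 0.09, adjusted p = 0.0449). Necap2, an endocytic adaptor-binding protein, rose from 79.6, 87.7 and 86.1 to 113, 117 and 115 CPM (0.44 ± 0.07, adjusted p = 0.0254).

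Genes of the actin cytoskeleton were called in both directions. Myl9, the regulatory light chain of smooth muscle and non-muscle myosin, rose from 14.6, 19.3 and 16.1 CPM in shControl to 29.8, 29.7 and 31.1 CPM with LINE-1 (log2 fold change 0.86 ± 0.12, adjusted p = 0.0145). Gsn (chromosome 2, 35256380 to 35307892), which encodes gelsolin, fell from 52.5, 56.4 and 57.4 to 34.4, 30.6 and 31.3 CPM (-0.79 ± 0.12, adjusted p = 0.0214). Cald1, which encodes caldesmon, a protein that binds actin and myosin, fell from 133, 130 and 117 to 90.6, 86.9 and 86.8 CPM (-0.52 ± 0.09, adjusted p = 0.0254). In each of the 3 the groups were separate. Of 32 members of this list tested, 1 was called higher and 2 lower, against 0.0727% and 0.0660% of all genes, with 16 positive, 16 negative and a median of 0.01. Without the 2 libraries that stand apart, Mylk, the kinase of myosin light chains, was called higher as well and the median was 0.11. Cdc42ep3, an effector of the GTPase Cdc42 that organises actin and septins, is in no list and fell from 20.6, 26.0 and 23.5 to 12.6, 13.9 and 13.5 CPM (-0.81 ± 0.13, adjusted p = 0.0214).

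Pdlim3 and Ankrd37 had levels with the hairpin alone that overlapped those of shControl. Pdlim3 (chromosome 8, 45885461 to 45919548, plus strand) encodes an actinin-binding LIM protein. It was at 2.53, 2.20 and 2.54 CPM in shControl and at 0.747, 0.968 and 0.775 CPM with LINE-1, while the hairpin alone gave 2.96, 2.03 and 1.93 CPM. Ankrd37 (chromosome 8, 45996902 to 46005707, minus strand), an ankyrin repeat gene, was at 8.16, 11.6 and 8.47 CPM in shControl, at 1.84, 2.26 and 2.84 CPM with LINE-1 and at 15.2, 12 and 7.26 CPM with the hairpin alone. In both genes the 3 libraries with LINE-1 were below all 6 of the others. Against shControl the log2 fold changes were -1.54 ± 0.23 and -2.02 ± 0.32 (adjusted p = 0.0173 and 0.0214). Against the hairpin alone they were -1.47 ± 0.23 and -2.31 ± 0.33 and did not pass, at adjusted p of 0.0968 and 0.0523.

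The 2 genes lie on the same chromosome with 77353 bases between them. The tested genes around them had log2 fold changes against shControl of 0.16 (Sorbs2), -0.34 (1700029J07Rik), 0.01 (Ufsp2), -0.24 (Lrp2bp) and -0.12 (Snx25), and their adjusted p was at least 0.785. Exons of Ankrd37 overlap those of Ufsp2 and Lrp2bp on the opposite strand. The labels do not say whether the libraries keep strand, so reads of overlapping genes cannot be told apart with certainty; the same holds for Desi1 with Xrcc6, Lamp1 with Grtp1 and Cryab with Hspb2. Ufsp2 stood at 48.6 CPM in shControl and did not pass the test.

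**Figure D2:**
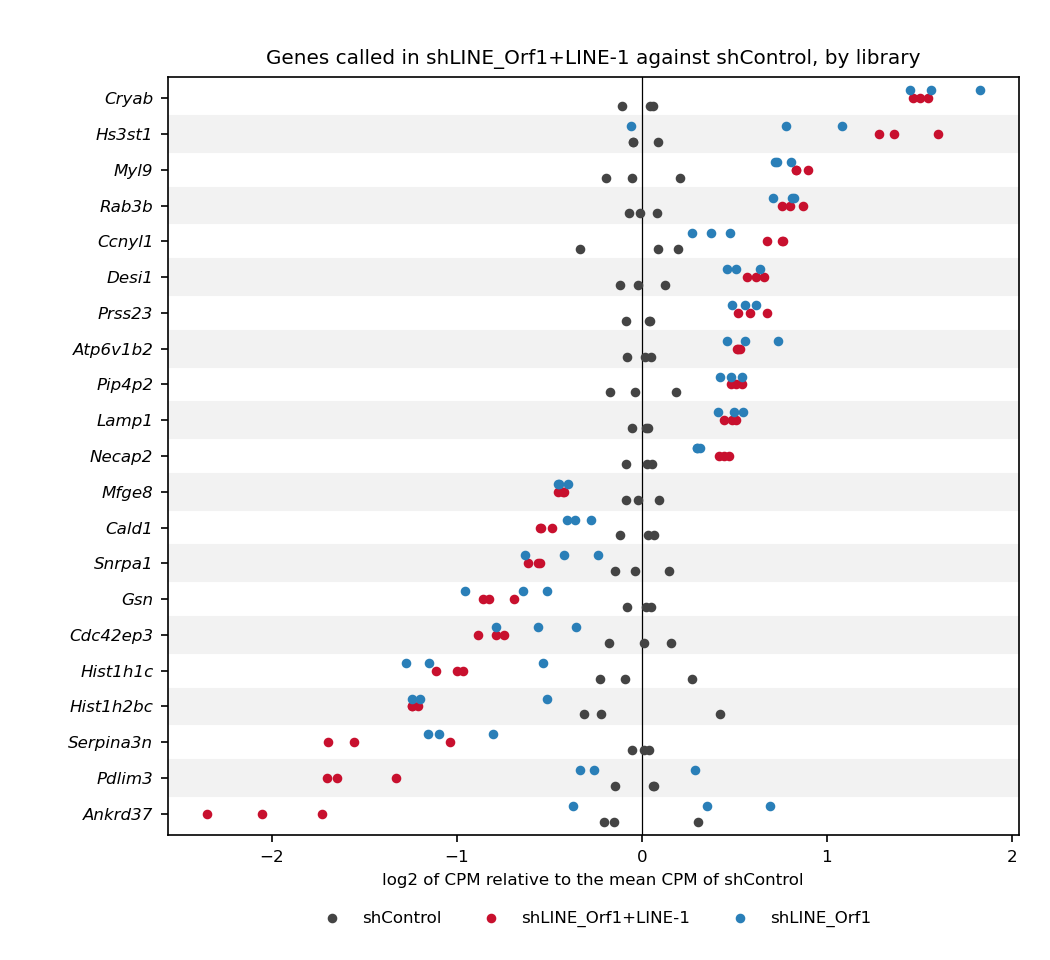
Log2 of the CPM of each library relative to the mean CPM of shControl (horizontal axis) for the 21 genes called (vertical axis), with 3 points per group. The shLINE_Orf1+LINE-1 points are all on one side of the shControl points, and the shLINE_Orf1 points lie near them in most genes but around shControl in Pdlim3 and Ankrd37.

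Ankrd37 was the only member called of 39 genes of glycolysis and hypoxia, a list that holds glycolytic enzymes and genes induced by the factor HIF1 when oxygen is low. Of its members, 31 had a negative log2 fold change and 8 a positive one, with a median of -0.19, against 46.3% positive and a median of -0.02 over all genes. In 19 members all 3 libraries with LINE-1 were below all 3 of shControl, and in 2 they were above, against 7.27% and 9.53% of all genes. The mean of the list relative to the shControl mean was -0.27, -0.28 and -0.28 in the 3 libraries with LINE-1 and -0.01, 0.02 and 0.00 in shControl, so the groups did not overlap. With the hairpin alone it was 0.03, 0.23 and -0.09. Without the 2 libraries that stand apart the median was -0.14 and Ankrd37 was again the only member called.

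Further members of this list, chosen after their values were seen, did not pass. Vegfa, the vascular growth factor, stood at 169, 151 and 164 CPM in shControl, 75.0, 78.2 and 77.1 CPM with LINE-1 and 112, 189 and 121 CPM with the hairpin alone. Its log2 fold change against shControl was -1.07 ± 0.25 (adjusted p = 0.111). Ddit4, a stress-induced inhibitor of mTORC1, stood at 33.8, 45.9 and 38.2 CPM and at 18.3, 23.9 and 22.9 CPM (-0.86 ± 0.19, adjusted p = 0.0974). Both had groups that did not overlap, and both were called when shLINE_Orf1 replicate 1 was left out. Pfkfb3, an enzyme that drives glycolysis, had a log2 fold change of -0.67 ± 0.20 (adjusted p = 0.273), Ndrg1 of -0.91 ± 0.33 (adjusted p = 0.433) and the mitophagy receptor Bnip3 of -0.44 ± 0.22 (adjusted p = 0.604). Levels of Ankrd37 and Vegfa varied widely within shLINE_Orf2, at 12.5 ± 5.8 and 220 ± 98 CPM (SD, n = 3). Within shLINE_Orf1 they were at 11.5 ± 4 and 141 ± 42 CPM. They varied less within shLINE_MdV_I, at 11.9 ± 1.3 and 185 ± 11 CPM, and shControl, at 9.40 ± 1.9 and 162 ± 9.1 CPM.

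Histone genes also included lower calls. Hist1h1c (chromosome 13, 23738808 to 23740367), a linker histone, fell from 124, 175 and 136 CPM in shControl to 67.0, 72.4 and 74.3 CPM with LINE-1 (-1.03 ± 0.17, adjusted p = 0.0231). Hist1h2bc, a core histone of the H2B family, fell from 194, 323 and 207 to 102, 102 and 104 CPM (-1.24 ± 0.20, adjusted p = 0.0214). In both, shControl replicate 2 was the highest library, and the other 2 control libraries were still above all 3 with LINE-1. The genes lie on chromosome 13 with 45899 bases between them. The tested genes in between, Hist1h4c and Hfe, had log2 fold changes of -0.58 and 0.26 and were not called. Histone genes share near-identical copies, and how the counting split reads between them is not known, so these values are uncertain.

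Over the 57 core histone genes tested, 46 had a negative log2 fold change and the median was -0.18. The mean of the list was -0.36, -0.24 and -0.09 in the libraries with LINE-1 and -0.41, 0.40 and 0.01 in shControl, so the control libraries spanned the others. Without the 2 libraries that stand apart the median was 0.06, with Hist1h2bc and Hist3h2a called lower. The 7 linker histone genes had 6 negative values and a median of -0.31, which was 0.03 without those 2 libraries, with Hist1h1c still called lower. Core histone genes are short: their median was 534 exonic bases, where that of all tested genes is 4334. What part length has in these values was not tested.

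The remaining genes called belong to different processes. Desi1, a peptidase that removes SUMO, rose from 50.3, 53.7 and 59.4 to 86.2, 83.5 and 80.9 CPM (log2 fold change 0.62 ± 0.09, adjusted p = 0.0145). Ccnyl1, a cyclin related to cyclin Y, rose from 59.9, 41.6 and 55.7 to 89.0, 88.5 and 83.6 CPM (0.73 ± 0.12, adjusted p = 0.0214). The share of its counts on the transcript Ccnyl1-201 was 57.4% ± 7.1 in shControl and 71.8% ± 0.60 with LINE-1, without overlap. The secreted protease gene Prss23 rose from 43.6, 43.8 and 40.1 to 67.8, 60.9 and 63.7 CPM (0.59 ± 0.09, adjusted p = 0.0173). Hs3st1, which adds a sulfate to heparan sulfate chains, was at 1.25, 1.25 and 1.37 CPM and rose to 3.14, 3.91 and 3.32 CPM (1.42 ± 0.25, adjusted p = 0.0413). These 4 genes were separate between the groups.

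Of those that fell, Mfge8, a secreted protein that bridges dying cells to phagocytes and is made by astrocytes, went from 202, 228 and 211 to 160, 156 and 159 CPM (-0.43 ± 0.08, adjusted p = 0.0422). Serpina3n, a protease inhibitor of reactive astrocytes, went from 6.38, 6.09 and 6.51 to 3.08, 1.95 and 2.15 CPM (-1.40 ± 0.24, adjusted p = 0.0286). Serpina3n has close relatives in its cluster, so its counts are uncertain. Snrpa1, a protein of the U2 splicing particle, went from 143, 175 and 154 to 103, 108 and 107 CPM (-0.57 ± 0.10, adjusted p = 0.0449). Mfge8 was the only call among 24 astrocyte genes, of which 12 were positive and 12 negative. Serpina3n was the only call among 11 serpins, of which 5 were positive and 6 negative.

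The direct test of LINE-1 supply, shLINE_Orf1+LINE-1 against shLINE_Orf1, called 0 genes with edgeR's quasi-likelihood test. At an unadjusted p under 0.05 there were 1681 genes (11.1%), DESeq2 called 20 and limma-voom with quality weights 399. For 18 of the 21 genes called against shControl, the 2 groups with the Orf1 hairpin differed by less than 0.5 on the log2 scale. The share of all genes tested within this limit was not computed, so the 18 cannot be read as a trait of the called genes. Over all genes tested the median difference was -0.01. The called genes beyond the limit were Ankrd37, Pdlim3 and Hs3st1 (0.74 ± 0.25, adjusted p = 0.422). Rab3b, Lamp1, Mfge8 and Prss23 differed by at most 0.04, with errors of 0.08 to 0.09. The 0.5 limit is wide: against shControl, Lamp1, Necap2 and Mfge8 changed by only 0.48, 0.44 and -0.43. Ccnyl1 was at 0.38 ± 0.12 with the hairpin alone against shControl, and 0.36 ± 0.12 above that with LINE-1. Against shControl the hairpin alone did not pass for Ankrd37, Pdlim3, Hs3st1 or Ccnyl1 (adjusted p of at least 0.312). Nor did it for Pip4p2, Hist1h2bc, Cdc42ep3, Serpina3n, Necap2, Snrpa1 and Cald1 (adjusted p from 0.0603 to 0.162). A p that misses the threshold does not show that LINE-1 left a gene unchanged, and shLINE_Orf1 holds the library farthest from the rest.

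Genes named earlier for the hairpin alone are set here beside their values with LINE-1; both comparisons use the same shControl libraries, so they are not independent. shLINE_Orf1 against shControl called 27 genes (0.178%), 21 higher (0.139%) and 6 lower (0.0396%), and the genes below were named for being among them. Psmb6, a catalytic subunit of the proteasome, stood at 174, 271 and 200 CPM in shControl, 369, 373 and 382 CPM with LINE-1 and 556, 336 and 418 CPM with the hairpin alone. Its log2 fold change was 1.02 ± 0.17 with the hairpin alone (adjusted p = 0.0242) and 0.80 ± 0.17 with LINE-1 (adjusted p = 0.0883). Cend1, which promotes cell cycle exit in neuronal precursors, stood at 6.64, 7.47 and 7.02 CPM, 10.8, 10.9 and 11.8 CPM and 15.3, 14.6 and 10.4 CPM in the same order, with 0.93 ± 0.15 (adjusted p = 0.0194) and 0.67 ± 0.15 (adjusted p = 0.0963). In both genes the LINE-1 libraries were above all of shControl without a call, and both were called with LINE-1 when the 2 libraries that stand apart were left out (1.01, adjusted p = 0.000116, and 0.72, adjusted p = 0.0201).

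The secretory pathway genes Tmed3 and Sec13 had log2 fold changes of 0.83 and 0.69 with the hairpin alone and of 0.52 each with LINE-1 (adjusted p = 0.191 and 0.11 with LINE-1). The glutathione transferase gene Gstt1 had 0.87 and 0.51 (adjusted p = 0.252), and Cpne1, a calcium-dependent membrane-binding protein, -0.72 and -0.37 (adjusted p = 0.247). All 4 passed with LINE-1 when the 2 libraries that stand apart were left out, at log2 fold changes of 0.69 (Tmed3), 0.60 (Sec13), 0.69 (Gstt1) and -0.43 (Cpne1) and adjusted p of at most 0.0221. In these 4 genes, and in Psmb6 and Cend1, the omitted shControl replicate 2 was the control library nearest to those with LINE-1. Tmed3, for example, stood at 72.6, 99.9 and 76.2 CPM in shControl and at 116, 122 and 119 CPM with LINE-1. Leaving that library out therefore widened the gap in each of them. The difference between shLINE_Orf1+LINE-1 and shLINE_Orf1 was called in 0 of these 6 genes. The adjusted p of that difference ran from 0.422 (Tmed3, Gstt1 and Cpne1) to 0.515 (Psmb6).

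In the plot of levels in the 5 groups, Cryab, Rab3b and Lamp1 were higher in all 4 groups with a LINE-1 hairpin than in shControl. Other called genes were shifted in all 4 groups too. Desi1 averaged 54.5 CPM in shControl and 79.1 to 83.5 CPM in the 4 groups. Atp6v1b2 averaged 147 and 202 to 221 CPM, and Mfge8 214 and 158 to 161 CPM. Hist1h1c averaged 145 CPM in shControl and was lowest in shLINE_MdV_I, at 39.6 CPM. Cdc42ep3 averaged 23.3 CPM in shControl, 21.7 in shLINE_Orf2, 20.3 in shLINE_MdV_I and 13.3 CPM with LINE-1. Cryab was at 19.7 ± 1.2 CPM in shControl, 60.7 ± 8.3 in shLINE_Orf1, 55.9 ± 1.6 in shLINE_Orf1+LINE-1, 38.4 ± 2.1 in shLINE_Orf2 and 31.6 ± 3.3 CPM in shLINE_MdV_I (SD, n = 3 each). The 2 groups with the Orf1 hairpin were the highest and overlapped. Myl9 was at 16.7 ± 2.4 CPM in shControl, 28.1 ± 0.91 and 30.2 ± 0.79 CPM in the 2 groups with the Orf1 hairpin, and 20.4 ± 1.5 and 16.7 ± 2.3 CPM in shLINE_Orf2 and shLINE_MdV_I. Ankrd37 was at 2.31 ± 0.50 CPM with LINE-1 and between 9.40 and 12.5 CPM on average in the other 4 groups. Hs3st1 was at 3.45 ± 0.40 CPM with LINE-1 and between 1.16 and 2.06 CPM in the others.

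**Figure D3:**
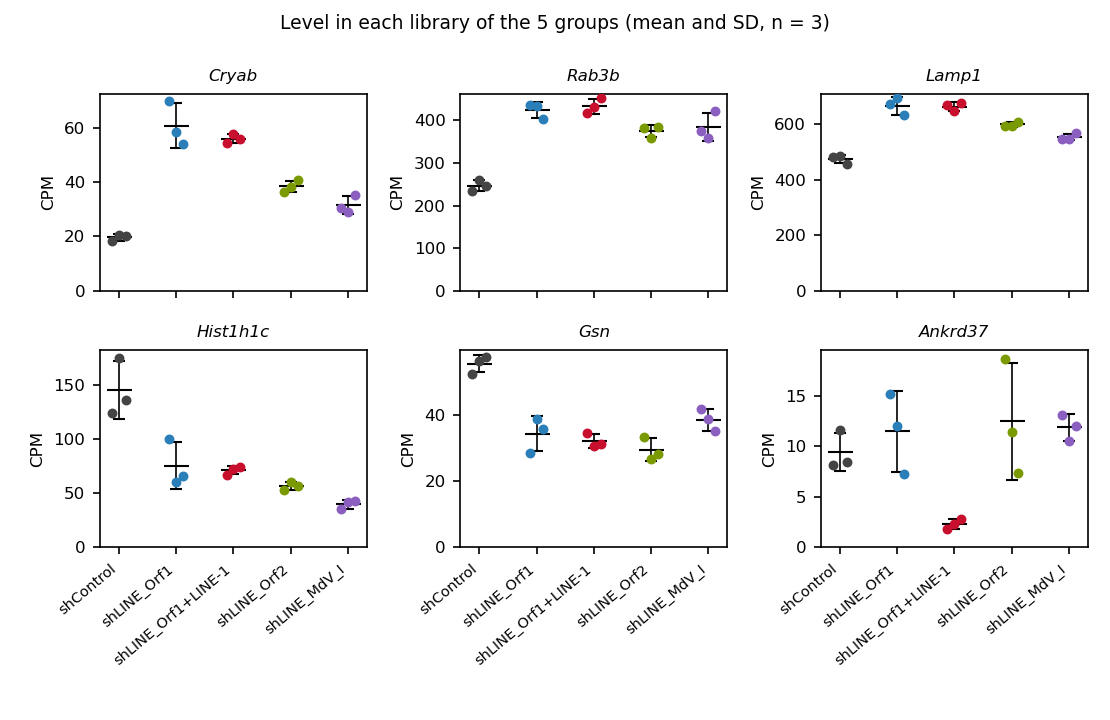
CPM (vertical axis, from 0) of 6 genes in each library of the 5 groups (horizontal axis), with the mean and SD of 3 libraries. Cryab, Rab3b and Lamp1 are lowest in shControl, Hist1h1c and Gsn are highest there, and Ankrd37 is lowest in shLINE_Orf1+LINE-1.

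Genes of DNA replication and the G1/S transition, which cells make as they enter S phase, leaned towards higher values without a call. Of 52 tested, 44 had a positive log2 fold change (84.6%, against 46.3% of all genes), the median was 0.16, and 22 were higher without overlap and 0 lower, against 9.53% and 7.27% of all genes. The list mean was 0.15, 0.16 and 0.17 in the libraries with LINE-1 and between -0.06 and 0.04 in shControl. With the hairpin alone it was 0.15, -0.01 and 0.12, and the list's median difference between the 2 groups with the Orf1 hairpin was 0.03. Ccne1, the cyclin E that starts S phase, stood at 68.3, 75.8 and 75.0 CPM in shControl and at 93.3, 97.2 and 100 CPM with LINE-1 (0.41 ± 0.08, adjusted p = 0.0813). Cdc6, which loads the replicative helicase, had 0.37 ± 0.09 (adjusted p = 0.131). With the hairpin alone against shControl, Ccne1 had 0.12 ± 0.08 and Cdc6 0.05 ± 0.09. When the 2 libraries that stand apart were left out, 7 members were called higher, against 1.31% of all genes: E2f2, Tk1, Ccne1, Prim2, Cdc45, Cdc6 and Rfc3.

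Of 70 genes of mitosis and G2/M tested, 43 were positive, the median was 0.06 and 0 were called. Without overlap 17 were higher and 0 lower, against 9.53% and 7.27% of all genes, while the list means of the 2 groups overlapped. Mybl2, a transcription factor of the cell cycle, had a log2 fold change of 0.34 ± 0.11 (adjusted p = 0.313) and the mitotic kinase Plk1 of 0.31 ± 0.10 (adjusted p = 0.372). The proliferation marker Mki67 stood at 60.6, 78.6 and 107 CPM in shControl and at 64.3, 77.1 and 116 CPM with LINE-1, with full overlap.

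Sensing of nucleic acids and the interferon response were tested as lists because LINE-1 RNA and cDNA are known to be able to trigger them. Of 20 genes of RNA and DNA sensing, 16 were positive with a median of 0.25, and 0 were called. The list mean was 0.27, 0.34 and 0.23 with LINE-1, against 0.13, -0.18 and 0.05 in shControl, so the groups did not overlap. With the hairpin alone it was -0.14, 0.03 and 0.14. Mavs, the mitochondrial adaptor of RNA sensors, stood at 18.2, 16.5 and 20.2 CPM in shControl, 30.1, 30.5 and 28.3 CPM with LINE-1 and 22.1, 33.2 and 31.0 CPM with the hairpin alone. Its log2 fold change with LINE-1 was 0.69 ± 0.13 and just missed the threshold (adjusted p = 0.0549), and Traf3, which acts after Mavs, had 0.57 ± 0.22 (adjusted p = 0.456). Both were called higher without the 2 libraries that stand apart, where the median of the list was 0.16.

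Of 53 interferon response genes tested, 41 were positive with a median of 0.12, 10 were higher and 0 lower without overlap, and 0 were called; over all genes 46.3% were positive and 9.53% and 7.27% were separate in these directions. The list means overlapped, at 0.20, 0.09 and 0.17 with LINE-1 and at 0.20, -0.04 and -0.16 in shControl. The chemokine gene Cxcl10 stood at 90.1, 98.8 and 85.6 CPM in shControl, 123, 118 and 115 CPM with LINE-1 and 77.9, 96.9 and 102 CPM with the hairpin alone (0.37 ± 0.11 against shControl, adjusted p = 0.245). The ubiquitin-like Isg15 had 0.39 ± 0.12 (adjusted p = 0.33). Cxcl10, Isg15, Ifitm2, Ifitm3 and Psmb10 were called higher without the 2 libraries that stand apart, where 1.31% of all genes were. For Cxcl10 and Isg15 the omitted shControl replicate 2 was the highest control library, at 98.8 and 58.5 CPM. Among 16 genes of MHC class I and peptide loading, 9 were positive and 0 were called; Tapbp, the chaperone tapasin, had 0.61 ± 0.13 (adjusted p = 0.0813; called without those 2 libraries) and calreticulin (Calr) 0.19 ± 0.12 (adjusted p = 0.723).

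Lists of cell types gave no call beside Mfge8 with all libraries in the fit. Leaving out the 2 libraries that stand apart added calls: Sox3, Hes5 and Id3 of the progenitor list (Id3 is also in the astrocyte list) and Cend1 of the neuronal list were higher, and the neuronal Gad1 and the oligodendrocyte lineage genes Pdgfra and Cspg4 were lower, where 1.31% and 0.981% of all genes were called. Among the libraries left out is shControl replicate 2, which was the highest of the 6 for Hes5. The same library was the lowest of shControl for Gad1 and Pdgfra, at 8.55 and 12.8 CPM. Hes5 stood at 22.4, 41.8 and 21.6 CPM in shControl and at 33.9, 33 and 40.1 CPM with LINE-1. With all libraries in the fit its log2 fold change was 0.32 ± 0.25 (adjusted p = 0.795), and the groups overlapped. Of 33 neural stem and progenitor genes, 21 were positive with a median of 0.11, and the list means were 0.09, 0.12 and 0.10 with LINE-1 and between -0.01 and 0.01 in shControl. Id4, an inhibitor of differentiation, had a log2 fold change of 0.56 ± 0.19 (adjusted p = 0.372), and the RNA-binding Msi2 of 0.22 ± 0.11 (adjusted p = 0.573). Of 36 genes of neuronal differentiation, 16 were positive and 20 negative; Gad1, which makes the transmitter GABA, stood at 10.9, 8.55 and 10.3 CPM in shControl and at 5.28, 5.09 and 6.91 CPM with LINE-1 (-0.79 ± 0.19, adjusted p = 0.118). Of 21 genes of the oligodendrocyte lineage, 15 were negative with a median of -0.12; Cnp had -0.34 ± 0.09 (adjusted p = 0.218) and Pdgfra, the receptor that marks their precursors, -0.56 ± 0.24 (adjusted p = 0.511). Microglial list genes, tested (5) or not, summed to 36.3 to 39.3 CPM in shControl and 34.1 to 36.2 CPM with LINE-1. Genes of endothelium, pericytes and fibroblasts, tested (9) or not, summed to 34.9 to 56.6 and 48.1 to 50.5 CPM. These sums used unscaled library sizes.

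For genes of ribosomes, mitochondria and the proteasome the shControl libraries spanned those with LINE-1. Of 79 ribosomal protein genes, 73 were negative with a median of -0.13, of 75 nuclear genes of oxidative phosphorylation 48 were negative (-0.06), of 36 proteasome genes 27 (-0.05) and of 12 mitochondrially encoded mRNAs 9 (-0.17), and these 4 lists held 0 calls. Their means were highest in shControl replicate 2 among the 6 libraries, at 0.44, 0.39, 0.20 and 0.35. The 4 medians were positive without the 2 libraries that stand apart, at 0.13, 0.21, 0.06 and 0.10, with Cox4i1 and Psmb6 called higher and Psme4 lower. Mitochondrially encoded mRNAs took 1.73%, 2.02% and 1.36% of counts in shControl and 1.61%, 1.59% and 1.63% with LINE-1. Of 54 genes of LINE-1 restriction and heterochromatin, 23 were positive and 31 negative with a median of -0.03, and 0 were called. The 5-methylcytosine oxidases Tet1 and Tet2, which are also in this list, were called lower without the 2 libraries that stand apart.

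**Figure D4:**
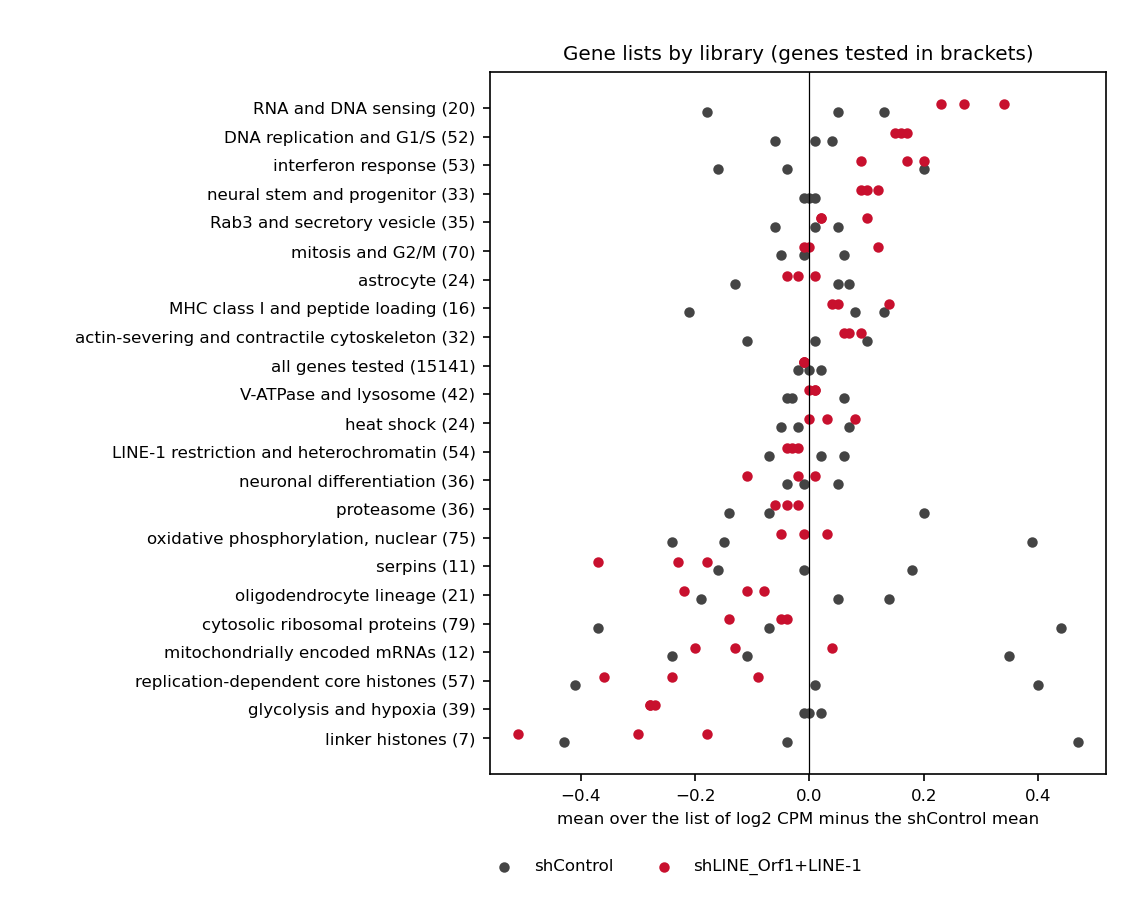
Mean over each gene list of log2 CPM minus the shControl mean (horizontal axis) in each of the 6 libraries, for 22 lists and for all genes tested (vertical axis, genes tested in brackets). The libraries with LINE-1 are apart from shControl for glycolysis and hypoxia (-0.28 to -0.27) and for DNA replication and G1/S (0.15 to 0.17). Among other lists, they are also apart for RNA and DNA sensing (0.23 to 0.34) and for neural stem and progenitor genes (0.09 to 0.12). For core histones shControl spans them (-0.41 to 0.40).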

How the data were processed

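Full-length cDNA libraries of a SMART-seq2 type were made from the RNA of sorted cells, per the labels' protocols. The authors deposited an expected count per transcript and library, not normalized; cutadapt, RSEM and the build mm10 are named by the submitters' processing notes, with no versions, settings or annotation (not given in the sources used here). Among 111462 transcripts, 110115 were matched to 34910 genes of GENCODE M21 (GRCm38), and counts were summed and rounded; the other 1347 (0.595% to 0.650% of counts) and 1 blank row were left out. A deposited table of a mixed model was not used here.

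Genes were filtered with filterByExpr (minimum count 10) and scaled with TMM, and edgeR's robust quasi-likelihood method was applied to the 15 libraries (39204191 to 51070479 gene counts) with 1 mean for each of the 5 groups; p-values were adjusted with Benjamini-Hochberg over 15141 genes, at a threshold of 0.05. An SE is the log2 fold change divided by the root of F. CPM were computed here from the counts and TMM-scaled library sizes, except for summed lists, which used unscaled library sizes. A prior count of 2 was added for log2 CPM. No replicate block was used. Alternatives were RLE or no scaling, no filter, at least 50 counts in 3 libraries, DESeq2, limma-voom, only the compared groups, a replicate block, a library-number covariate, and leaving out libraries. The script was tested on simulated data. Tools were R 4.3.3, edgeR 4.0.16, limma 3.58.1, DESeq2 1.42.0, matplotlib 3.10.9, pandas 2.3.3, numpy 2.4.6 and Python 3.11.15.

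The rule names up to 15 called genes per direction that do not overlap and reach a mean log2 CPM of 3 (17 genes), each list's called members or else the 2 with the smallest p, the markers, and genes named earlier for shLINE_Orf1; the other 4 called genes have lower levels. Members, the 36 lists (22 described) and the alternatives were chosen with earlier results of these data known, and 5 hypoxia genes, neighbouring genes and members named as called without certain libraries after their values were seen.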

Additional observations from a re-analysis of the deposited data

How the results depend on the processing

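Scaling and filters changed the counts of genes called against shControl by less than 1.5 times (10 to 13 higher and 7 to 10 lower). Other models moved them: DESeq2 called 137 higher and 77 lower, limma-voom with quality weights 321 and 218, the fit with only the compared groups 2 and 2, and the library number as a covariate, which is 1 in all 6 libraries compared, 23 and 16. Without the 2 libraries that stand apart there were 202 and 151. Leaving out 1 compared library gave 2 to 13 higher and 0 to 10 lower. The replicate block gave 2 higher (Cryab and Rab3b) and 0 lower. Deviations of same-numbered libraries of the 2 groups correlated at 0.117, 0.008 and -0.041, and those of differently numbered ones at -0.093 to 0.085. With 3 libraries in each group these values cannot decide whether the numbers pair the libraries. Pairing with shLINE_Orf1 was not tested. Against shLINE_Orf1, 0 genes were called except with DESeq2 (20), with limma-voom (399) and without shLINE_Orf1 replicate 3 (1, Ankrd37), a range of 0 to 1 over the libraries left out. The 4 called genes with few counts have errors of 0.23 (Pdlim3) to 0.32 (Ankrd37), and the causes of these differences were not tested.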
